A study of Homo sapiens with 10 samples.

Results

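The HOX genes were followed in HEK-293, a line derived from human embryonic kidney, after silencing of LOC440173 or of PAXIP1-AS1, both long intergenic non-coding RNAs. Of 18404 genes measured through probe sets with a single symbol, 27 had a symbol made of HOXA, HOXB, HOXC or HOXD and a number. Antisense RNAs of the clusters were not members. Each of the 27 had 1 probe set, so no choice between probe sets was needed. They comprised HOXA2, 10 genes of the HOXB cluster (HOXB1 to HOXB9 and HOXB13), 7 of HOXC (HOXC5 and HOXC8 to HOXC13) and 9 of HOXD (HOXD1, HOXD3, HOXD4 and HOXD8 to HOXD13). The RefSeq gene table lists 39 genes of this kind, and the others, most of them in the HOXA cluster, were not analysed here.

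Cells received siRNA duplexes with the RNAiMax lipid reagent, and RNA was taken 48 hours later and labelled for Affymetrix arrays. The 5 groups held 2 arrays each. The groups were LOC440173 siRNA 2 and LOC440173 siRNA 1, both at 10 nM, and a PAXIP1-AS1 siRNA at 100 nM. A negative control siRNA of undisclosed sequence was given at 10 nM for the first experiment and at 100 nM for the second, so all groups were transfected and none was left untreated. The labels call the arrays of a group biological replicates without naming separate cultures, so p-values measure only the spread between these arrays. A single duplex stood for PAXIP1-AS1. In RNA from whole cultures, fewer cells of a type and less RNA per cell cannot be told apart.

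HOX genes encode homeodomain transcription factors that give cells an address along the body axis. In humans they lie in 4 clusters, and their order along the chromosome mirrors the order in which they are used: low-numbered genes at 1 end act early and towards the head (here called anterior, numbers 1 to 3), and high-numbered genes at the other end act late and towards the tail, in the limbs and in the urogenital tract (posterior, numbers 9 to 13). Those between them are called central (4 to 8). Polycomb proteins keep silent parts of the clusters closed, Trithorax and MLL methyltransferases keep active parts open, and retinoic acid induces the anterior genes. HOX proteins bind DNA together with cofactors of the PBX, MEIS and PKNOX families. In mouse, the paralogues of HOXC11 and HOXD11 are needed for outgrowth of the ureteric bud of the kidney.

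The clusters also hold microRNAs that act on HOX messages. These 3 mature sequences are shown because the group-8 genes HOXB8, HOXC8 and HOXD8, among those that differed between siRNA groups, are known targets of miR-196. The miR-10 genes lie beside HOXB4 and HOXD4. Seeds (bases 2 to 8) are in capitals. MIR196A1 (chr17:48632532-48632553, minus strand) and MIR196A2 (chr12:53991762-53991783, plus strand) give the same miR-196a-5p. The miR-196b-5p gene lies at chr7:27169528-27169549 and that of miR-10a-5p at chr17:48579904-48579926, both on the minus strand. These come from RefSeq on GRCh38.p14. Both miR-196 sequences share a seed, and miR-10a has another. Probe sets named for these genes do not measure the mature microRNA, and any part of the microRNAs in the HOX changes was not tested.
hsa-miR-196a-5p: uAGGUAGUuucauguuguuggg
hsa-miR-196b-5p: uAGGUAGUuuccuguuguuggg
hsa-miR-10a-5p: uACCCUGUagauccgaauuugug

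Promoter sequences are shown for 4 neighbours at the posterior end of the HOXD cluster. HOXD10 and HOXD11 differed between siRNA groups, while HOXD12 and HOXD13 were not called in any comparison of the main fit. HOXD12 averaged only 4.62 (log2) in the controls, near the background described below, and passed with LOC440173 siRNA 1 under 1 alternative processing. Whether it responds therefore cannot be read from its lack of a call. Each is the 250 bases before the annotated start on the plus strand of GRCh38.p14 (RefSeq). They lie at chr2:176116528-176116777 for HOXD10, chr2:176107030-176107279 for HOXD11, chr2:176099545-176099794 for HOXD12 and chr2:176092471-176092720 for HOXD13. Of the 27 genes, 11 had a promoter entry.
HOXD10: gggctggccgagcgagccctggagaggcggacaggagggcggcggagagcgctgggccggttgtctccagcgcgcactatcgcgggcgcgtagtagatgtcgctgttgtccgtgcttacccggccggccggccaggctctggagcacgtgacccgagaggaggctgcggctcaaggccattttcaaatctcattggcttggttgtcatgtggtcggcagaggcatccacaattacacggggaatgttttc
HOXD11: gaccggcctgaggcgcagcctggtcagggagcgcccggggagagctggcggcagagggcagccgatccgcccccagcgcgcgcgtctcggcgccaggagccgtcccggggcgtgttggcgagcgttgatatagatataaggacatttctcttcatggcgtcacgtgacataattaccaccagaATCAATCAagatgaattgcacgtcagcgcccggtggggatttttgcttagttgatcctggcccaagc
HOXD12: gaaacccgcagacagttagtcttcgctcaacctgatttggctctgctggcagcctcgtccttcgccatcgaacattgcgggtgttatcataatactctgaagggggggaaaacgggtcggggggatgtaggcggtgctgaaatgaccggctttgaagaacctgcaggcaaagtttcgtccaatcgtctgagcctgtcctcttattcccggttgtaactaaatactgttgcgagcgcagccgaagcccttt
HOXD13: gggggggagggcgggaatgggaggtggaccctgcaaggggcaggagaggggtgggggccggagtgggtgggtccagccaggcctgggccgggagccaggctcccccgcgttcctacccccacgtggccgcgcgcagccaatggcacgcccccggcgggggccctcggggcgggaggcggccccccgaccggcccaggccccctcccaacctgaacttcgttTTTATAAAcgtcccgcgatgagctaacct
Capitals mark motif matches on either strand. The search covered 3 motifs: TATAAA, the core of a TATA box, TGATTNAT, a site bound by PBX and HOX proteins together, and AGGTCA, a site of nuclear receptors. The HOXD13 window held TATAAA on both strands, in matches that overlap, and the HOXD11 window held 1 TGATTNAT match, printed on the opposite strand. HOXD10 and HOXD12 held none of these letters. Among 35116 promoter windows of the same length, 10.7% held TATAAA, 2.5% TGATTNAT and 12.1% AGGTCA. The HOXD windows had 23 CG dinucleotides at HOXD10, 23 at HOXD11, 16 at HOXD12 and 21 at HOXD13, against a median of 11 over all windows.

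The targeted RNA was lower with both of its siRNAs. LOC440173, listed as LINC02893, stood at 6.71 and 6.59 (log2) with siRNA 2 and at 7.72 and 7.43 with siRNA 1, against 8.48 and 8.60 in the 10 nM control. That is 27.0% of the control level with siRNA 2 (adjusted p = 1.38e-05) and 51.4% with siRNA 1 (adjusted p = 0.000305). With the PAXIP1-AS1 siRNA it was 8.54 and 8.54, against 8.50 and 8.60 in the 100 nM control. For PAXIP1-AS1 the annotation gave 0 probe sets, and the RNA itself was not analysed here. All 7 HEK-293 markers looked for (NEFL, NEFM, INA, VIM, KRT8, KRT18 and PAX2) lay above the olfactory receptor level defined in the next paragraph, while 1 of 5 hepatocyte, 1 of 4 blood, 2 of 5 fibroblast or endothelial, 1 of 3 keratinocyte and 3 of 5 kidney tubule markers did.

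In the control cells, nearly all measured HOX genes lay above a level taken from olfactory receptor genes, as did most genes of any kind. Olfactory receptor genes, most of which are silent outside the nose, served as a description of background: 340 of them had a median of 4.61 (log2) and a 95th percentile of 6.05 over the 4 control arrays. Of the HOX genes 25 of 27 lay above that percentile, namely HOXA2, 10 of 10 HOXB, 6 of 7 HOXC and 8 of 9 HOXD genes. This limit is low: the lower quartile of all genes was 5.97, and HOXB1, above the limit, lay at the 32nd percentile of all genes. The exact share of all genes above it was not counted. By position these were 6 of 6 anterior, 9 of 9 central and 10 of 12 posterior genes. The median of all genes, 7.69, was exceeded by 19 of the 27: by HOXA2, 9 HOXB, 4 HOXC and 5 HOXD genes, or by 3 anterior, 7 central and 9 posterior ones. Probe sets differ in affinity, so one HOX gene's level is not ranked against another's, and each is placed only among all genes.

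The exceptions were both number 12 genes. HOXD12 averaged 4.62 ± 0.094 (SD, n = 4 control arrays), close to the median of the olfactory receptor genes, between neighbours HOXD11 at 9.72 and HOXD13 at 10.51, which lay at the 81.4th and 90.8th percentile of all genes. HOXC12 averaged 5.91 ± 0.057, just under the limit, and the gene just above it was HOXB1, the hindbrain gene at the anterior end of HOXB, at 6.45 ± 0.151. Far above it lay HOXB9 at 11.72 (97.7th percentile), HOXD10 at 11.63 (97.5th) and HOXC9 at 10.06 (85.8th), all of them genes that act at trunk and lumbar levels. HOXA2, which patterns the hindbrain and second pharyngeal arch, lay at 9.46 (77.5th percentile). HOXB13, the posterior HOXB gene known from prostate and hindgut, averaged 7.92. With the 90th or 99th percentile of olfactory receptors as the limit, 26 or 24 HOX genes lay above it.

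**Figure D1:**
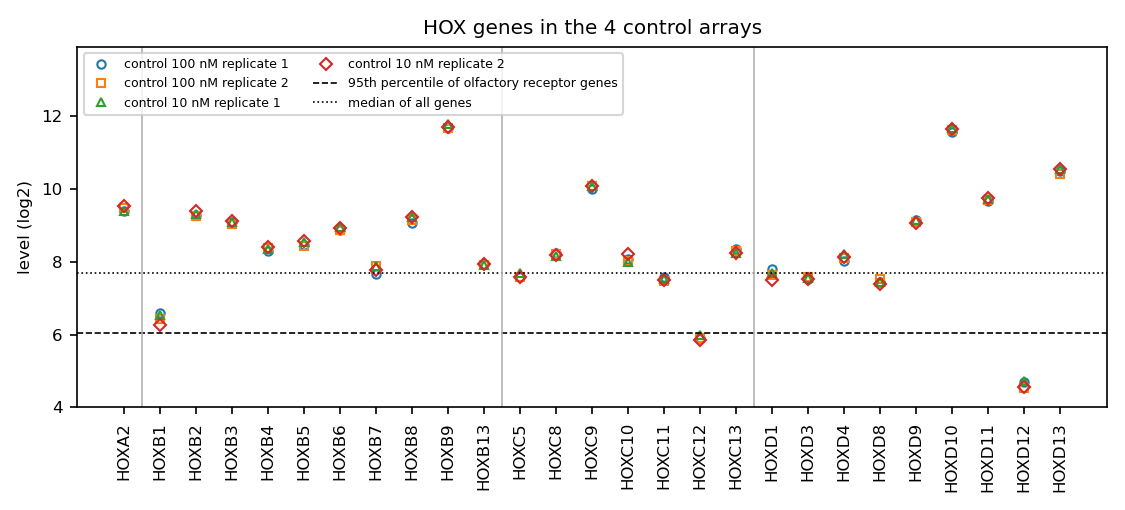
Level (log2) of each of the 27 HOX genes on the 4 control arrays, ordered by cluster and number, with 1 symbol per array. The dashed line is the 95th percentile of 340 olfactory receptor genes (6.05) and the dotted line the median of all genes (7.69); only HOXC12 and HOXD12 lie under the dashed line.

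No HOX gene was called between the doses of the control siRNA. With 100 nM against 10 nM of control siRNA, 0 of 27 passed an adjusted p of 0.05 in limma, the threshold used throughout for a gene to be named called, and 0% of all genes did. At an unadjusted p under 0.05 the count was 0 HOX genes and 692 genes in all. The median difference of the HOX genes was -0.04 (log2), against -0.00 over all genes, and single genes lay between -0.13 and 0.13. 

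HOX genes were called with each of the target siRNAs. With LOC440173 siRNA 2, 8 of 27 were called higher and 5 lower than in the 10 nM control, where 12.5% of all genes were called higher and 17.4% lower (30.0% in either direction). With LOC440173 siRNA 1, 11 were higher and 1 lower, where 12.1% of all genes were higher and 16.7% lower (28.8% in either). With the PAXIP1-AS1 siRNA, 6 were higher and 0 lower than in the 100 nM control, where 2.86% of all genes were higher and 1.76% lower (4.62% in either). Background shares are larger among the 9202 genes at or above the median level, where 21 of the 27 lie. There 20.2% were higher and 26.9% lower with siRNA 2, 17.2% and 26.6% with siRNA 1, and 5.01% and 2.83% with the PAXIP1-AS1 siRNA. In either direction these shares were 47.1%, 43.8% and 7.84%, and those of the HOX genes 48.1%, 44.4% and 22.2%. With both LOC440173 siRNAs the HOX share is thus near that of genes at or above the median level. The LOC440173 siRNAs share their control arrays, so their calls are given side by side and not counted as separate support.

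Median changes of the 27 genes were small. They were 0.08 (log2) with siRNA 2, 0.22 with siRNA 1 and 0.14 with the PAXIP1-AS1 siRNA, against 0.01, 0.05 and -0.01 over all genes. In the PAXIP1-AS1 comparison 21 of 27 differences were above 0, including genes that did not pass the test, where 8440 of all 18404 genes were. Its 100 nM control arrays were below the 10 nM control for 19 of the 27 and above it for 8, with 0 called. Over all genes 9655 were below. In the PAXIP1-AS1 comparison the 9 central genes had a median of 0.28 and 4 calls, the 6 anterior genes 0.06 and 0 calls, and the 12 posterior genes 0.08 and 2 calls. With siRNA 1 the central median was 0.36 with 5 genes higher, and with siRNA 2 it was 0.12 with 4 higher and 1 lower. Called members of the HOXD cluster split into 2 higher and 2 lower with siRNA 2, while 3 were higher and 0 lower with siRNA 1.

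**Figure D2:**
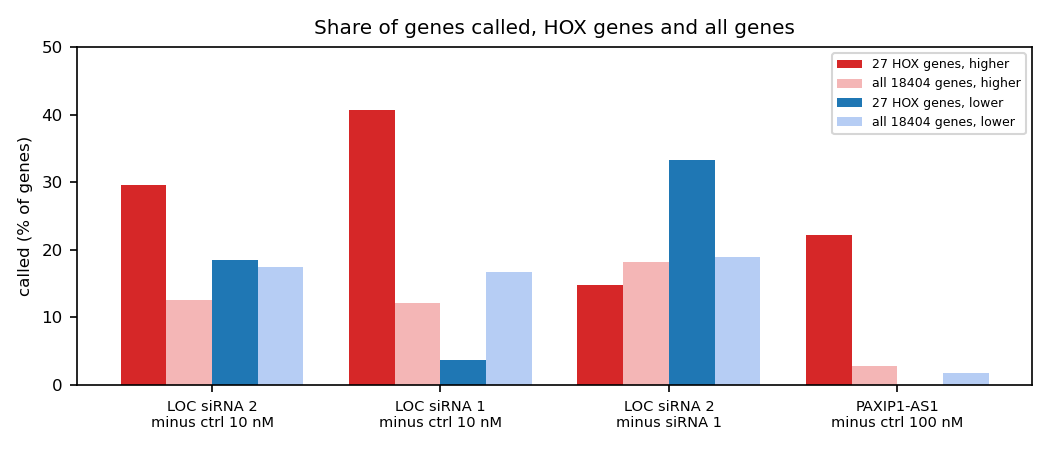
Share of genes called (%) in 4 comparisons, higher (red) and lower (blue), for the 27 HOX genes (dark) and for all 18404 genes (pale). In the PAXIP1-AS1 comparison 22.2% of the HOX genes were called, all higher, against 2.86% of all genes called higher.

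Both LOC440173 siRNAs differed from each other on 13 of the 27 HOX genes, 4 higher and 9 lower with siRNA 2 than with siRNA 1. Over all genes 18.2% were higher and 19.0% lower (37.1% in either), and among genes at or above the median level 29.9% were higher and 28.3% lower (58.2% in either). The HOX share in either direction, 48.1%, is above the first and below the second. The median HOX difference was -0.08, against -0.05 over all genes. All 4 called HOXD genes, HOXD8 to HOXD11, were lower with siRNA 2 than with siRNA 1. Any difference among the 5 groups, in a moderated F test, was called for 17 of 27 HOX genes, where 44.5% of all genes were. These were 8 of 10 HOXB, 5 of 7 HOXC, 4 of 9 HOXD and 0 of 1 HOXA genes, or 2 of 6 anterior, 6 of 9 central and 9 of 12 posterior ones. In every call on a single HOX gene between 2 groups, the arrays of those groups did not overlap. With 2 arrays a group this is common, and it also held for uncalled members, such as HOXA2 with siRNA 1. Its share over all genes was not counted.

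**Figure D3:**
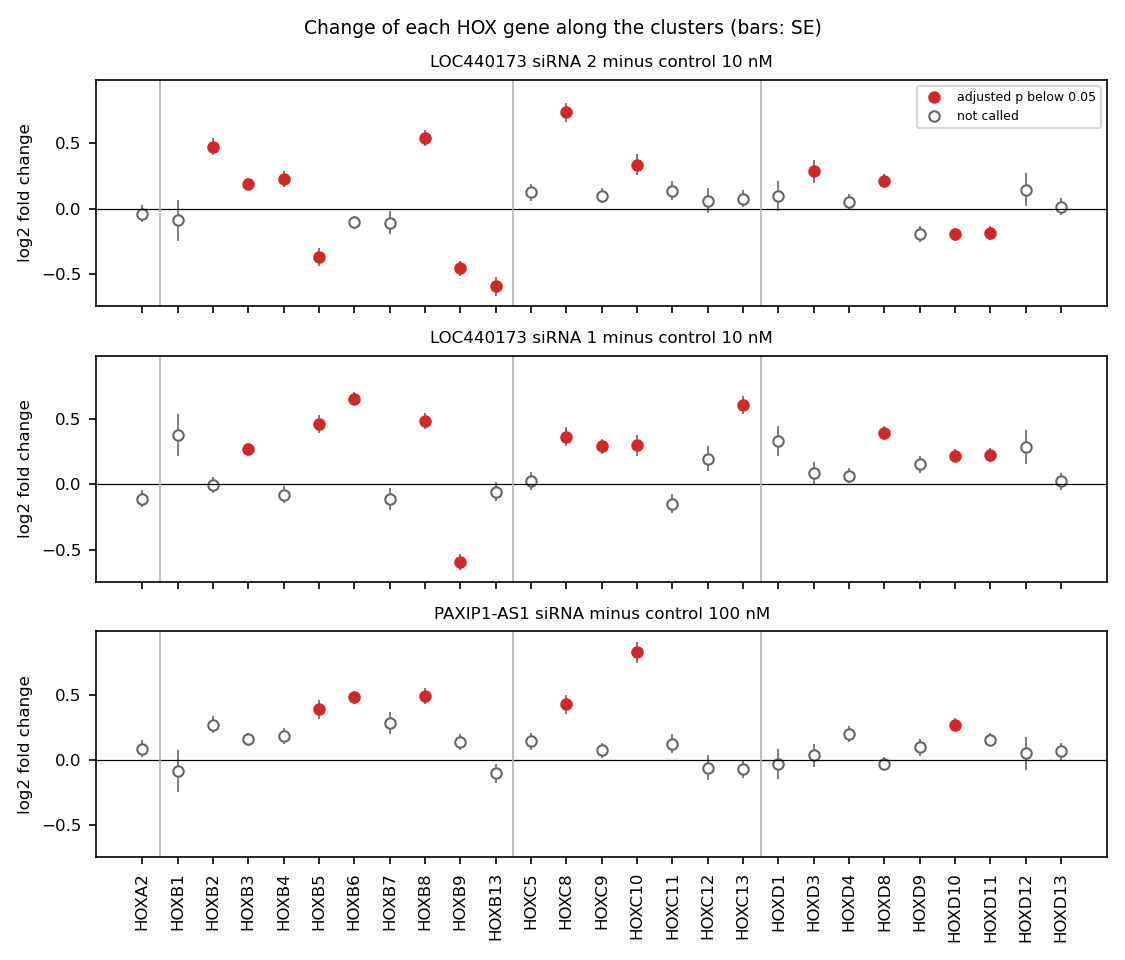
Log2 fold change of each HOX gene in cluster order against the control of the same dose, for LOC440173 siRNA 2 (top), LOC440173 siRNA 1 (middle) and the PAXIP1-AS1 siRNA (bottom), with bars of 1 SE. Filled red points passed an adjusted p of 0.05: 13, 12 and 6 genes in the panels from top to bottom.

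At the anterior end of the HOXB cluster, HOXB2 set the LOC440173 siRNAs apart. HOXB2, which acts in the hindbrain and facial nerve, read 9.81 and 9.84 with siRNA 2 and 9.26 and 9.42 with siRNA 1, against 9.32 and 9.38 in the 10 nM control, and 9.53 and 9.55 with the PAXIP1-AS1 siRNA, against 9.27 and 9.26 in the 100 nM control (log2). It was high on both siRNA 2 arrays, while the siRNA 1 arrays straddled their controls. The change was 0.48 (SE 0.0627, adjusted p = 0.000849) with siRNA 2 and -0.01 (adjusted p = 0.954, not called) with siRNA 1, and both siRNAs differed by 0.48 (SE 0.0627, adjusted p = 0.000517). With the PAXIP1-AS1 siRNA it was 0.27 (adjusted p = 0.0531), not called, although its arrays did not overlap with their controls. It was called there under 5 alternatives (adjusted p between 0.00801 and 0.0450): another quantile normalization, genes below the median level left out, an intensity trend, array weights and the replicate block.

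HOXB3, the next gene towards the posterior end, whose long transcripts run through the neighbouring genes, measured 9.31 and 9.29 with siRNA 2 and 9.40 and 9.35 with siRNA 1, against 9.10 and 9.12 in the 10 nM control, and 9.22 and 9.24 with the PAXIP1-AS1 siRNA, against 9.10 and 9.04 in the 100 nM control. All 4 LOC440173 siRNA arrays lay above their controls. It rose by 0.27 (SE 0.0483, adjusted p = 0.00443) with siRNA 1 and by 0.19 (SE 0.0483, adjusted p = 0.0200) with siRNA 2. The second call was lost when any of 3 arrays was left out, replicate 1 of the 10 nM control or either siRNA 2 replicate (adjusted p between 0.0576 and 0.0878). HOXB4, known for expanding blood stem cells when overexpressed, showed 8.54 and 8.67 with siRNA 2 and 8.31 and 8.29 with siRNA 1, against 8.35 and 8.40 in the 10 nM control, and 8.55 and 8.49 with the PAXIP1-AS1 siRNA, against 8.29 and 8.37 in the 100 nM control. Only siRNA 2 arrays stood above their controls among the LOC440173 arrays. HOXB4 changed by 0.23 (SE 0.0615, adjusted p = 0.0251) with siRNA 2 and differed between the siRNAs by 0.30 (SE 0.0615, adjusted p = 0.00509), and its call against the control was lost without replicate 1 of the 10 nM control or replicate 2 of siRNA 2 (adjusted p between 0.0996 and 0.138).

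HOXB5 was called in opposite directions with the LOC440173 siRNAs, and HOXB6 was called with siRNA 1. HOXB5, which acts in the neural crest cells of the gut, measured 8.09 and 8.29 with siRNA 2 and 9.02 and 9.02 with siRNA 1, against 8.55 and 8.57 in the 10 nM control, and 8.80 and 8.86 with the PAXIP1-AS1 siRNA, against 8.47 and 8.42 in the 100 nM control. The siRNA 2 arrays lay below their controls, and the siRNA 1 and PAXIP1-AS1 siRNA arrays above theirs. The log2 fold changes were -0.37 (SE 0.0696, adjusted p = 0.00491) with siRNA 2, 0.46 (SE 0.0696, adjusted p = 0.00193) with siRNA 1 and 0.39 (SE 0.0696, adjusted p = 0.0229) with the PAXIP1-AS1 siRNA, and both LOC440173 siRNAs differed by -0.83 (SE 0.0696, adjusted p = 5.14e-05). HOXB6, a neighbour expressed in lung and blood-forming tissue, was at 8.83 and 8.85 with siRNA 2 and 9.64 and 9.56 with siRNA 1, against 8.96 and 8.92 in the 10 nM control, and 9.33 and 9.38 with the PAXIP1-AS1 siRNA, against 8.88 and 8.88 in the 100 nM control. Arrays of siRNA 1 and of the PAXIP1-AS1 siRNA were clearly high, and those of siRNA 2 slightly below the control. HOXB6 was 1.58-fold higher with siRNA 1 (0.66, adjusted p = 8.14e-05) and 1.39-fold higher with the PAXIP1-AS1 siRNA (0.48, adjusted p = 0.00345), with a difference between siRNA 2 and siRNA 1 of -0.76 (SE 0.0515, adjusted p = 1.9e-05). In the PAXIP1-AS1 comparison the HOXB5 call was lost without either array of siRNA 1, of the PAXIP1-AS1 siRNA or of the 100 nM control (adjusted p between 0.0527 and 0.173), and the HOXB6 call without replicate 2 of the PAXIP1-AS1 siRNA (adjusted p = 0.0506).

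HOXB8, the group-8 gene of the cluster, was higher with all 3 target siRNAs. Its levels were 9.84 and 9.70 with siRNA 2 and 9.73 and 9.71 with siRNA 1, against 9.23 and 9.23 in the 10 nM control, and 9.60 and 9.58 with the PAXIP1-AS1 siRNA, against 9.06 and 9.14 in the 100 nM control. Its target siRNA arrays all lay above the 4 control arrays. The rise was 0.54 (SE 0.0606, adjusted p = 0.000379) with siRNA 2, 0.48 (SE 0.0606, adjusted p = 0.000785) with siRNA 1 and 0.49 (SE 0.0606, adjusted p = 0.00607) with the PAXIP1-AS1 siRNA, or 1.41-fold in the last. siRNA 2 and siRNA 1 did not differ detectably on it (0.06, adjusted p = 0.522). The PAXIP1-AS1 call was lost without replicate 1 of the 100 nM control or either replicate of the PAXIP1-AS1 siRNA (adjusted p between 0.0587 and 0.0639).

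The posterior genes HOXB9 and HOXB13 were lower with LOC440173 siRNA 2, and HOXB9 also with siRNA 1. HOXB9, a trunk-level gene with one of the higher positions among all genes in the controls, measured 11.29 and 11.31 with siRNA 2 and 11.10 and 11.22 with siRNA 1, against 11.79 and 11.71 in the 10 nM control, and 11.86 and 11.79 with the PAXIP1-AS1 siRNA, against 11.68 and 11.69 in the 100 nM control. The LOC440173 siRNA arrays lay below every control, and the PAXIP1-AS1 siRNA arrays slightly above theirs. HOXB9 fell with siRNA 2 by 0.46 (SE 0.0598, adjusted p = 0.000819) and with siRNA 1 by 0.60 (SE 0.0598, adjusted p = 0.000267), while the PAXIP1-AS1 siRNA gave 0.14 (adjusted p = 0.271, not called). HOXB13 stood at 7.34 and 7.33 with siRNA 2 and 7.78 and 7.97 with siRNA 1, against 7.92 and 7.93 in the 10 nM control, and 7.76 and 7.88 with the PAXIP1-AS1 siRNA, against 7.94 and 7.90 in the 100 nM control. Only the siRNA 2 arrays were low, and siRNA 1 straddled its controls. HOXB13 changed by -0.59 (SE 0.0718, adjusted p = 0.000558) with siRNA 2 and by -0.05 (adjusted p = 0.599, not called) with siRNA 1, a difference between them of -0.54 (SE 0.0718, adjusted p = 0.000590). Of the calls on HOXB9 and HOXB13, none was lost when any 1 array was left out.

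**Figure D4:**
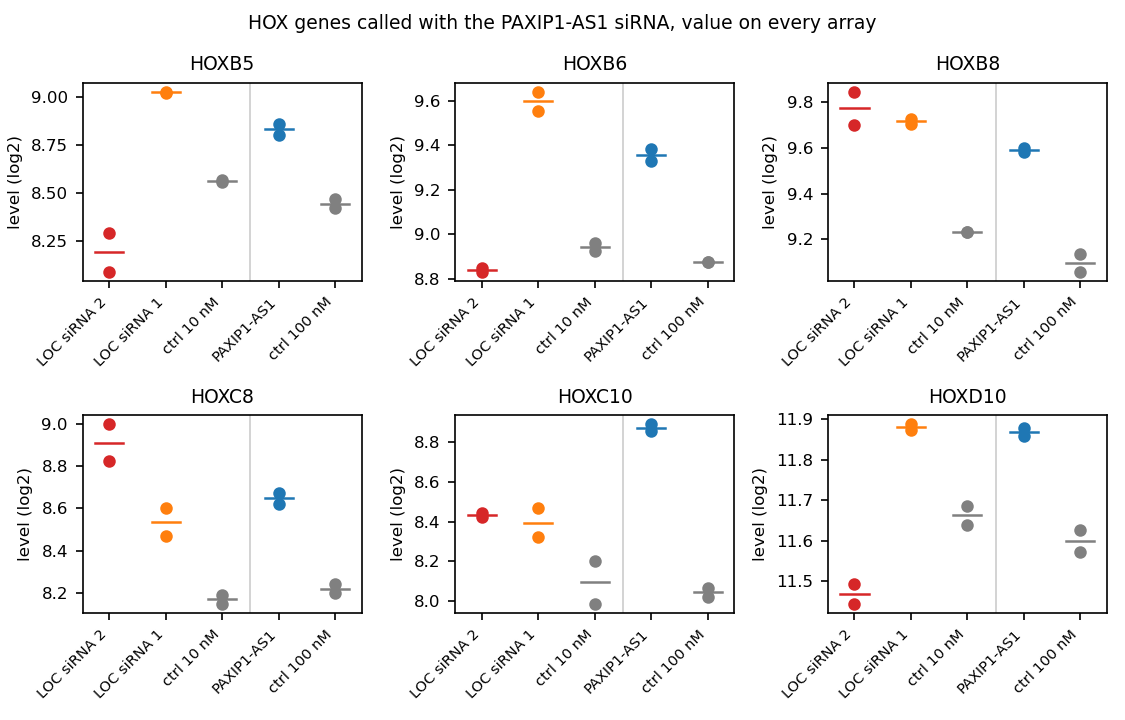
Level (log2) on every array of the 6 HOX genes called with the PAXIP1-AS1 siRNA, with dots for arrays and short lines for group means; the grey line in each panel parts the 10 nM from the 100 nM experiment and each panel has its own range. In all 6 panels the PAXIP1-AS1 siRNA arrays lie above both 100 nM control arrays, and HOXB5 and HOXD10 lie below the control with LOC440173 siRNA 2.

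Among HOXC genes, HOXC8 and HOXC10 were called with all 3 target siRNAs. HOXC8, the group-8 gene of thoracic levels, was at 8.82 and 9.0 with siRNA 2 and 8.47 and 8.60 with siRNA 1, against 8.15 and 8.19 in the 10 nM control, and 8.62 and 8.67 with the PAXIP1-AS1 siRNA, against 8.24 and 8.20 in the 100 nM control. Every target siRNA array exceeded all 4 control arrays. HOXC8 rose by 0.74 (SE 0.0735, adjusted p = 0.000220) with siRNA 2 (1.67-fold), by 0.36 (SE 0.0735, adjusted p = 0.00757) with siRNA 1 and by 0.43 (SE 0.0735, adjusted p = 0.0200) with the PAXIP1-AS1 siRNA. siRNA 2 exceeded siRNA 1 by 0.37 (SE 0.0735, adjusted p = 0.00445). The siRNA 1 call was lost without its replicate 2 (adjusted p = 0.0589), and the PAXIP1-AS1 call without either array of its own group or of the 100 nM control (adjusted p between 0.107 and 0.152).

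HOXC10, which specifies lumbar motor neurons and acts in the hindlimb region, measured 8.42 and 8.44 with siRNA 2 and 8.32 and 8.47 with siRNA 1, against 7.99 and 8.20 in the 10 nM control, and 8.85 and 8.89 with the PAXIP1-AS1 siRNA, against 8.07 and 8.02 in the 100 nM control. The PAXIP1-AS1 siRNA arrays stood well apart from the rest, and the LOC440173 siRNA arrays lay between them and the controls. With the PAXIP1-AS1 siRNA the change was 0.83 (SE 0.0804, adjusted p = 0.00229), or 1.77-fold, the largest PAXIP1-AS1 change among the 27 genes, and it was kept when each array was left out in turn. It was 0.34 (SE 0.0804, adjusted p = 0.0147) with siRNA 2 and 0.30 (SE 0.0804, adjusted p = 0.0260) with siRNA 1. The siRNA 2 call was lost without either of its arrays or replicate 1 of the 10 nM control (adjusted p between 0.0516 and 0.0662), and the siRNA 1 call without its replicate 2 or the same control array (adjusted p between 0.0933 and 0.154).

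Other posterior HOXC genes were called with siRNA 1 or between the LOC440173 siRNAs. HOXC13, which controls hair keratin genes, was at 8.31 and 8.33 with siRNA 2 and 8.82 and 8.88 with siRNA 1, against 8.25 and 8.23 in the 10 nM control, and 8.16 and 8.34 with the PAXIP1-AS1 siRNA, against 8.34 and 8.30 in the 100 nM control. Only the siRNA 1 arrays stood above all others. HOXC13 rose by 0.61 (SE 0.0658, adjusted p = 0.000391) with siRNA 1, changed by 0.08 (adjusted p = 0.464, not called) with siRNA 2, and differed between siRNA 2 and siRNA 1 by -0.53 (SE 0.0658, adjusted p = 0.000395). HOXC9, which sets thoracic motor neuron identity, measured 10.13 and 10.21 with siRNA 2 and 10.41 and 10.32 with siRNA 1, against 10.07 and 10.08 in the 10 nM control, and 10.12 and 10.11 with the PAXIP1-AS1 siRNA, against 10.00 and 10.08 in the 100 nM control. Its siRNA 1 arrays were the highest. The change was 0.29 (SE 0.0572, adjusted p = 0.00663) with siRNA 1, lost without replicate 1 of that group (adjusted p = 0.0550), and siRNA 2 differed from siRNA 1 by -0.19 (SE 0.0572, adjusted p = 0.0297), lost without replicate 1 of either LOC440173 siRNA or either PAXIP1-AS1 siRNA array (adjusted p between 0.0528 and 0.180). HOXC11, a group-11 gene, stood at 7.55 and 7.73 with siRNA 2 and 7.38 and 7.34 with siRNA 1, against 7.52 and 7.48 in the 10 nM control, and 7.67 and 7.65 with the PAXIP1-AS1 siRNA, against 7.59 and 7.47 in the 100 nM control. It was lower on siRNA 1 arrays than on siRNA 2 arrays. Against the control it gave 0.14 (adjusted p = 0.204, not called) with siRNA 2 and -0.15 (adjusted p = 0.169, not called) with siRNA 1. siRNA 2 exceeded siRNA 1 by 0.28 (SE 0.0716, adjusted p = 0.0145), a call lost without either siRNA 1 array or replicate 2 of siRNA 2 (adjusted p between 0.0521 and 0.0862).

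In the HOXD cluster HOXD8 was higher with both LOC440173 siRNAs. This group-8 gene measured 7.66 and 7.60 with siRNA 2 and 7.82 and 7.81 with siRNA 1, against 7.45 and 7.39 in the 10 nM control, and 7.46 and 7.47 with the PAXIP1-AS1 siRNA, against 7.45 and 7.53 in the 100 nM control. LOC440173 siRNA arrays lay above every control array, while the PAXIP1-AS1 siRNA arrays lay within the range of theirs. It rose by 0.39 (SE 0.0528, adjusted p = 0.00110) with siRNA 1 and by 0.21 (SE 0.0528, adjusted p = 0.0184) with siRNA 2, differed between siRNA 2 and siRNA 1 by -0.18 (SE 0.0528, adjusted p = 0.0267), and gave -0.03 (adjusted p = 0.860, not called) with the PAXIP1-AS1 siRNA. The siRNA 2 call was lost without replicate 1 of siRNA 2 or replicate 2 of the 10 nM control (adjusted p between 0.0791 and 0.0922), and the difference between the siRNAs without either siRNA 1 array or replicate 2 of siRNA 2 (adjusted p between 0.0928 and 0.133). The group-8 genes HOXB8 and HOXC8 were called higher with all 3 target siRNAs. Their paralogue HOXD8 was called higher with both against LOC440173 but not with the PAXIP1-AS1 siRNA. HOXC10, which is not of this group, was also called higher with all 3. The share of all genes called higher with all 3 was not counted here, so these calls are not read as a trait of group 8.

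HOXD9, HOXD10 and HOXD11, adjacent genes of limb and lumbosacral patterning, shared a direction in the contrast of siRNA 2 with siRNA 1. HOXD9 stood at 8.93 and 8.88 with siRNA 2 and 9.22 and 9.29 with siRNA 1, against 9.15 and 9.05 in the 10 nM control, and 9.28 and 9.16 with the PAXIP1-AS1 siRNA, against 9.14 and 9.10 in the 100 nM control. The siRNA 2 arrays were the lowest and the siRNA 1 arrays above their controls, with a difference of -0.35 (SE 0.0638, adjusted p = 0.00316) between them. HOXD9 was not called against the control with siRNA 2 (-0.19, adjusted p = 0.0549) or siRNA 1 (0.15, adjusted p = 0.110), but passed under 3 alternatives with siRNA 2 (adjusted p between 0.0157 and 0.0395) and 2 with siRNA 1 (0.0416 and 0.0435). HOXD10, whose promoter was printed first among the HOXD windows, measured 11.49 and 11.44 with siRNA 2 and 11.89 and 11.87 with siRNA 1, against 11.69 and 11.64 in the 10 nM control, and 11.86 and 11.88 with the PAXIP1-AS1 siRNA, against 11.57 and 11.63 in the 100 nM control. Arrays of siRNA 2 were below all controls, and those of siRNA 1 and the PAXIP1-AS1 siRNA above all of them. The changes were -0.19 (SE 0.0494, adjusted p = 0.0195) with siRNA 2, 0.22 (SE 0.0494, adjusted p = 0.0127) with siRNA 1 and 0.27 (SE 0.0494, adjusted p = 0.0246) with the PAXIP1-AS1 siRNA (1.21-fold), and -0.41 (SE 0.0494, adjusted p = 0.000334) between siRNA 2 and siRNA 1. HOXD11, whose paralogue group patterns the forearm and kidney in mouse, was at 9.57 and 9.56 with siRNA 2 and 9.92 and 10.03 with siRNA 1, against 9.73 and 9.76 in the 10 nM control, and 9.83 and 9.86 with the PAXIP1-AS1 siRNA, against 9.68 and 9.70 in the 100 nM control. It followed HOXD10, low with siRNA 2 and high with siRNA 1. HOXD11 changed by -0.19 (SE 0.0528, adjusted p = 0.0313) with siRNA 2, by 0.23 (SE 0.0528, adjusted p = 0.0142) with siRNA 1 and by -0.41 (SE 0.0528, adjusted p = 0.000472) between them.

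The differences of HOXD9, HOXD10 and HOXD11 between siRNA 2 and siRNA 1 were kept when each array was left out in turn. The calls of HOXD10 and HOXD11 against the controls were not, and HOXD9 had no such call. For HOXD10 the siRNA 2 call was lost without replicate 2 of siRNA 2 or replicate 1 of the 10 nM control (adjusted p between 0.0798 and 0.0980), the siRNA 1 call without either siRNA 1 array or replicate 2 of that control (0.0584 and 0.0740), and the PAXIP1-AS1 call without either array of siRNA 1, of the PAXIP1-AS1 siRNA or of the 100 nM control (0.0555 and 0.179). For HOXD11 the siRNA 2 call did not hold when any 1 of the 8 arrays outside the siRNA 1 group was dropped (0.0515 and 0.111) and the siRNA 1 call without its replicate 2 (0.0991). HOXD3, at the anterior end of the cluster, was at 7.88 and 7.78 with siRNA 2 and 7.55 and 7.71 with siRNA 1, against 7.56 and 7.52 in the 10 nM control, and 7.47 and 7.71 with the PAXIP1-AS1 siRNA, against 7.53 and 7.58 in the 100 nM control. Its siRNA 2 arrays were the highest. HOXD3 rose by 0.29 (SE 0.0887, adjusted p = 0.0434) with siRNA 2, lost without any 1 array of siRNA 2 or of either control group (adjusted p between 0.0653 and 0.182).

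Members that were not called numbered 9. These genes, HOXA2, HOXB1, HOXB7, HOXC5, HOXC12, HOXD1, HOXD4, HOXD12 and HOXD13, were not called in any comparison of a target siRNA with its control or of siRNA 2 with siRNA 1 in the fit described. Under at least 1 alternative 7 of the 9 did pass, all but HOXA2 and HOXD13. HOXD1 passed with siRNA 1 under 7 alternatives, 3 of them with 1 array left out (adjusted p between 0.0149 and 0.0482), and between the siRNAs under 2. HOXB1 passed between the siRNAs under 7, 3 of them with 1 array left out (0.00840 and 0.0437), and with siRNA 1 under 3. Under 1 alternative each, HOXD12 passed with siRNA 1 (replicate block, 0.00431), HOXC5 with siRNA 2 (another quantile normalization, 0.0339), HOXC12 between the siRNAs (without replicate 1 of siRNA 2, 0.0368), and HOXB7 and HOXD4 with the PAXIP1-AS1 siRNA (genes below the median level left out, 0.0310 for HOXB7 and 0.0272 for HOXD4).

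**Figure D5:**
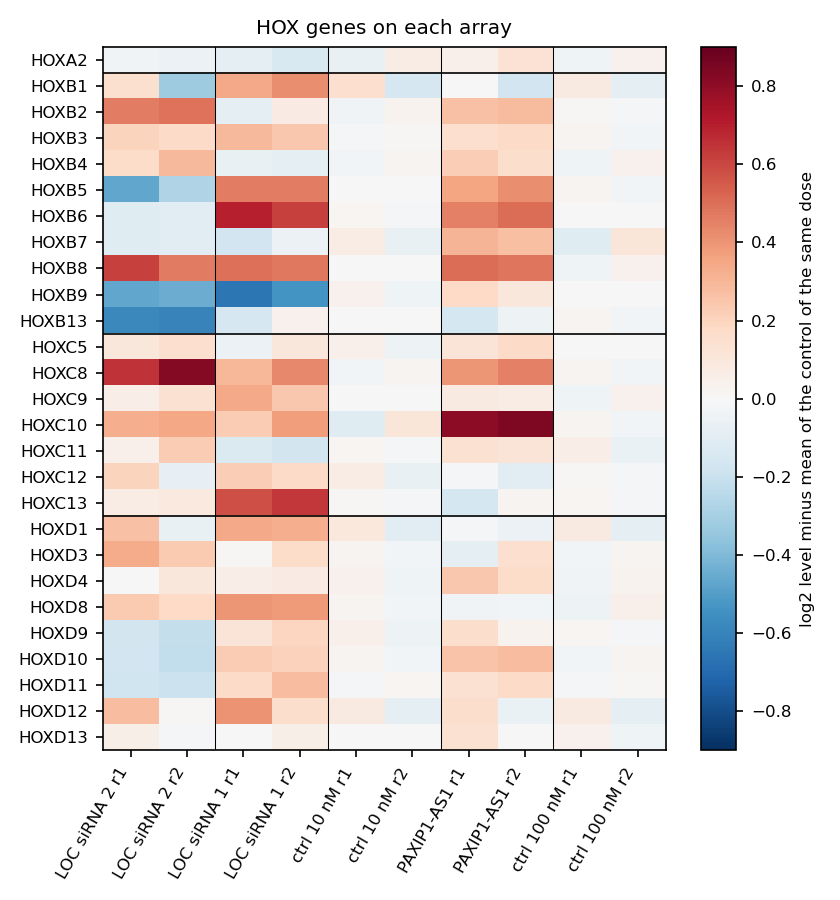
Level of each HOX gene on each array minus the mean of the 2 control arrays of the same dose (log2; red above, blue below), with genes ordered by cluster down the page and black lines between clusters and groups. HOXB8 and HOXC8 are red on all 6 target siRNA arrays, HOXB9 is blue on the 4 LOC440173 siRNA arrays, and HOXD9 to HOXD11 are blue with siRNA 2 and red with siRNA 1.

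HOXB7, HOXD4 and HOXB1 had the smallest F-test p among these 9 genes. HOXB7, whose mouse promoter is active in the ureteric bud, measured 7.72 and 7.73 with siRNA 2 and 7.65 and 7.77 with siRNA 1, against 7.89 and 7.76 in the 10 nM control, and 8.07 and 8.03 with the PAXIP1-AS1 siRNA, against 7.65 and 7.88 in the 100 nM control. The PAXIP1-AS1 siRNA arrays were the highest, but the difference of 0.28 had an adjusted p of 0.113. HOXD4, a retinoic acid responsive hindbrain gene, differed by 0.20 with the PAXIP1-AS1 siRNA (adjusted p = 0.115). HOXB1 was 6.54 and 6.08 with siRNA 2 and 6.74 and 6.81 with siRNA 1, against 6.55 and 6.25 in the 10 nM control, and 6.5 and 6.32 with the PAXIP1-AS1 siRNA, against 6.58 and 6.42 in the 100 nM control. The siRNA 2 arrays were far apart, and the difference of -0.47 between siRNA 2 and siRNA 1 had an adjusted p of 0.0509. HOXD13, the digit gene next to the low HOXD12, ranged over only 0.186 (log2) across all 10 arrays, and its F-test adjusted p was 0.501.

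The effect of the PAXIP1-AS1 siRNA was tested against the mean effect of the LOC440173 siRNAs, each relative to its own control. Of the 27 genes, 3 were called higher and 2 lower in this difference, where 8.79% of all genes were higher and 2.78% lower (11.6% in either, and 14.4% and 3.68%, or 18.1% in either, among genes at or above the median level). The HOX share in either direction, 18.5%, is near that of genes at or above the median level. HOXB9, lower with the LOC440173 siRNAs and not called with the PAXIP1-AS1 siRNA, differed by 0.67 (SE 0.0791, adjusted p = 0.00235), and this call was kept when each array was left out in turn. HOXC10 differed by 0.51 (SE 0.106, adjusted p = 0.0212) and HOXD10 by 0.26 (SE 0.0654, adjusted p = 0.0424), both in the direction of a higher PAXIP1-AS1 value. For HOXD10 the LOC440173 mean combines opposite changes, -0.19 with siRNA 2 and 0.22 with siRNA 1, and the siRNA 1 change lies close to the 0.27 of the PAXIP1-AS1 siRNA. HOXC13 differed by -0.41 (SE 0.0871, adjusted p = 0.0218) and HOXD8 by -0.33 (SE 0.0698, adjusted p = 0.0221), with the higher value for LOC440173. In this difference HOXB8 and HOXC8 were not called (-0.02 for HOXB8, adjusted p = 0.898, and -0.12 for HOXC8, adjusted p = 0.473). The calls were lost without some arrays. These were any PAXIP1-AS1 siRNA or 100 nM control array for HOXC10 (adjusted p between 0.0648 and 0.0895), any 1 of the 10 arrays for HOXD10 (0.0569 and 0.154), replicate 2 of siRNA 1 or of the 10 nM control, replicate 1 of the PAXIP1-AS1 siRNA or either 100 nM control array for HOXC13 (0.0537 and 0.0866), and either siRNA 1 or PAXIP1-AS1 siRNA array or replicate 2 of either control for HOXD8 (0.0512 and 0.0882).

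All 6 HOX genes called higher with the PAXIP1-AS1 siRNA, HOXB5, HOXB6, HOXB8, HOXC8, HOXC10 and HOXD10, were also called higher with LOC440173 siRNA 1, which has other control arrays but the same pooled estimate of the spread. They are 6 of the 11 called higher with siRNA 1 (54.5%). Over all genes, 231 of the 526 called higher with the PAXIP1-AS1 siRNA were higher with siRNA 1 (43.9%) and 114 lower. These 231 are 10.4% of the 2229 genes called higher with siRNA 1. With siRNA 2, 3 of the 6 were higher (HOXB8, HOXC8 and HOXC10) and 2 lower (HOXB5 and HOXD10), while over all genes 266 of 526 were higher (50.6%) and 107 lower. When 1 array was left out in turn, the number of HOX genes called with the PAXIP1-AS1 siRNA ranged from 1 to 6: it was 1 without replicate 2 of that siRNA, 2 without its replicate 1, 2 and 3 without replicates 1 and 2 of the 100 nM control, and 4 without either siRNA 1 array. The share of all genes called shrank too, to 0.598% without replicate 2 and 0.636% without replicate 1 of the PAXIP1-AS1 siRNA. Calls also depended on which arrays shared the estimate of spread. When a fit held only the groups being compared, HOXB3, HOXB4, HOXB5, HOXC10, HOXD3, HOXD8, HOXD10 and HOXD11 were no longer called with siRNA 2, HOXC10, HOXD10 and HOXD11 with siRNA 1, HOXC9, HOXC11 and HOXD8 between the siRNAs, and HOXB5, HOXC8 and HOXD10 with the PAXIP1-AS1 siRNA. With array weights, HOXB3, HOXB4, HOXD3, HOXD10 and HOXD11 were no longer called with siRNA 2. With an intensity trend in the prior, HOXD8 was no longer called with siRNA 2 or between the siRNAs. With genes below the median level left out, 12 of 21 HOX genes were called higher with the PAXIP1-AS1 siRNA, where 11.4% of the genes then tested were called higher. The added ones were HOXB2, HOXB3, HOXB4, HOXB7, HOXD4 and HOXD11. HOXB9 was gained between the siRNAs under 2 alternatives and HOXC11 with siRNA 2 under 1, and in the difference of effects HOXB5, HOXB6 and HOXB7 were each gained under at least 1.

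The HOX cofactors, with 7 of 9 listed genes measured, had 4 higher and 0 lower with siRNA 2, 2 higher and 1 lower with siRNA 1, and 2 higher and 0 lower with the PAXIP1-AS1 siRNA. That is 57.1%, 42.9% and 28.6% called in either direction, where 30.0%, 28.8% and 4.62% of all genes were, and 47.1%, 43.8% and 7.84% of genes at or above the median level, where 6 of the 7 lie. PBX3, a partner that helps HOX proteins bind DNA, rose by 0.72 with siRNA 2 (adjusted p = 7.42e-05), by 0.21 with siRNA 1 (adjusted p = 0.0251) and by 0.31 with the PAXIP1-AS1 siRNA (adjusted p = 0.0233). MEIS1 rose by 0.30 with siRNA 2 (adjusted p = 0.00946) and fell by 0.22 with siRNA 1 (adjusted p = 0.0361). MEIS2 rose with siRNA 2 by 0.41 and with siRNA 1 by 0.20, PKNOX2 with siRNA 2 by 0.43, and PKNOX1 with the PAXIP1-AS1 siRNA by 0.23 (adjusted p = 0.0471). The median of the cofactors was 0.30 with siRNA 2, 0.07 with siRNA 1 and 0.16 with the PAXIP1-AS1 siRNA, against 0.01, 0.05 and -0.01 over all genes.

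Polycomb genes, 26 of 31 measured, were called in both directions. With siRNA 2, 7 were higher and 4 lower, with siRNA 1 7 higher and 8 lower, and with the PAXIP1-AS1 siRNA 2 higher and 1 lower. The shares called, 42.3%, 57.7% and 11.5%, stand beside 47.1%, 43.8% and 7.84% among genes at or above the median level, where 25 of the 26 lie, and the siRNA 2 share is below that background. PCGF3, a subunit of variant Polycomb complexes, rose by 0.44 with siRNA 2 and fell by 0.79 with siRNA 1. PHF19, which helps recruit the methyltransferase complex PRC2, fell by 1.16 with siRNA 2 (adjusted p = 1.38e-05). With the PAXIP1-AS1 siRNA the PRC2 subunit SUZ12 rose by 0.30 (adjusted p = 0.0469), PCGF5 rose by 0.27 (adjusted p = 0.0302) and CBX6 fell by 0.27 (adjusted p = 0.0231). The Polycomb median was -0.09 with siRNA 2, 0.00 with siRNA 1 and 0.01 with the PAXIP1-AS1 siRNA, beside the medians of all genes given above.

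Trithorax and MLL genes, 24 of 24 measured, had 6 higher and 7 lower with siRNA 2, 9 higher and 2 lower with siRNA 1, and 0 called with the PAXIP1-AS1 siRNA. All 24 lie at or above the median level, and the shares called, 54.2% with siRNA 2 and 45.8% with siRNA 1, are near the 47.1% and 43.8% of such genes. The methyltransferase gene KMT2C rose by 0.63 with siRNA 2 (adjusted p = 0.000103), and its relative KMT2D fell by 0.55 (adjusted p = 8.74e-05). The elongation factor gene AFF4 fell by 0.47 with siRNA 2 and by 0.70 with siRNA 1. PAXIP1, named for its place beside PAXIP1-AS1 and not for its value, encodes a partner of KMT2C and KMT2D and gave 0.02 with the PAXIP1-AS1 siRNA (adjusted p = 0.919). The retinoic acid list, 14 of 17 measured, had 1 higher and 7 lower with siRNA 2, 1 higher and 6 lower with siRNA 1, and 0 called with the PAXIP1-AS1 siRNA. Calls over all genes lean lower too, with 12.5% higher and 17.4% lower with siRNA 2 and 12.1% higher and 16.7% lower with siRNA 1. DHRS3, a retinaldehyde reductase, fell by 0.99 with siRNA 2 and by 0.66 with siRNA 1, and the receptor gene RARB fell by 0.55 with siRNA 2 and rose by 0.34 with siRNA 1. The Trithorax and MLL median was -0.05 with siRNA 2, 0.15 with siRNA 1 and 0.00 with the PAXIP1-AS1 siRNA, and that of the retinoic acid list -0.29, -0.02 and -0.03 in the same order. Whether any of these genes bears on the HOX changes was not tested.

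CDX genes and CTCF, which act on the clusters, together with genes that flank them, 15 of 16 measured, had 4 higher and 2 lower with siRNA 2, 2 higher and 1 lower with siRNA 1, and 1 each with the PAXIP1-AS1 siRNA. The shares called were 40%, 20% and 13.3%, where 30.0%, 28.8% and 4.62% of all genes were, so that the siRNA 1 share is below that of all genes. With the PAXIP1-AS1 siRNA SNX10, near the HOXA cluster, rose by 0.45 (adjusted p = 0.0167) and CALCOCO1, near HOXC, fell by 0.30 (adjusted p = 0.0451). The median of this list was 0.01 with siRNA 2, 0.19 with siRNA 1 and 0.02 with the PAXIP1-AS1 siRNA. CBX5, which lies beyond the HOXC cluster, rose by 0.16 with siRNA 2 and by 0.34 with siRNA 1. Of the non-coding RNAs of the clusters only 6 of 24 were measured, and 1 call was made, a rise of HOXA-AS2 by 0.51 with siRNA 2 (adjusted p = 0.0495). The probe set of MIR10A gave 0.46 with the PAXIP1-AS1 siRNA (adjusted p = 0.129), and MIR196A2 gave 0.22 (adjusted p = 0.346).

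Markers of the cell line itself also differed. The mean level of the 7 HEK-293 markers was 9.42 and 9.35 with siRNA 2 and 9.30 and 9.26 with siRNA 1, against 9.46 and 9.46 in the 10 nM control, and 9.18 and 9.21 with the PAXIP1-AS1 siRNA, against 9.50 and 9.43 in the 100 nM control. Of the 7, 1 was called higher and 4 lower with siRNA 2, 1 higher and 2 lower with siRNA 1, and 0 higher and 2 lower with the PAXIP1-AS1 siRNA. That is 71.4%, 42.9% and 28.6% called, where 30.0%, 28.8% and 4.62% of all genes were. Among genes at or above the median level, where 5 of the 7 lie, the shares were 47.1%, 43.8% and 7.84%. Median changes of the 7 were -0.31, 0.02 and -0.09 in the same order. NEFL, a neurofilament gene, was lower with siRNA 2 (-0.51), siRNA 1 (-1.07) and the PAXIP1-AS1 siRNA (-1.13). NEFM was higher with siRNA 2 (1.11) and lower with siRNA 1 (-0.77) and the PAXIP1-AS1 siRNA (-0.52), and these 2 genes were the ones called in the PAXIP1-AS1 comparison. KRT8, a keratin gene, was lower with siRNA 2 (-0.32) and higher with siRNA 1 (0.53), and VIM (-0.31) and KRT18 (-0.59) were lower with siRNA 2. LRP2, a kidney tubule marker, was higher with siRNA 2 (0.85) and the PAXIP1-AS1 siRNA (0.60) and lower with siRNA 1 (-0.52). The other 4 kidney tubule markers, AQP1, AQP2, SLC12A1 and SLC12A3, were not called in these comparisons, and the medians of all 5 were 0.01, 0.10 and -0.01 with siRNA 2, siRNA 1 and the PAXIP1-AS1 siRNA. ALB, PTPRC and DCN, which define hepatocytes, blood cells and fibroblasts, averaged 4.29, 3.57 and 3.76 in the controls, under the olfactory receptor median of 4.61. Other members of their lists lay above the olfactory receptor 95th percentile: 1 of 5 hepatocyte, 1 of 4 blood and 2 of 5 fibroblast or endothelial markers. The part of the marker changes in the HOX results was not tested.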

How the data were processed

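The authors deposited log2 expression levels for 32321 probe sets on each of the 10 arrays. RMA (background correction, quantile normalization and summary) and limma are named, without versions, in the submitters' processing notes. For the array definition and genome build the sources used here give nothing, and scanner intensities were not used. Array medians were 7.06 to 7.12. Between replicates, r across probe sets, which are not independent, was 0.994 to 0.997.

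In the platform annotation 19158 probe sets had a single symbol, 1388 had several, and 11775 were unlisted. Each of 18404 genes was represented by its brightest probe set (highest mean of the 10 arrays). One limma model (version 3.58.1, R 4.3.3) with a mean per group and eBayes held all arrays, so that 5 residual and 2.87 prior degrees of freedom were shared by all groups. Contrasts were two-sided, and Benjamini-Hochberg adjusted p-values over all genes were read at 0.05. An exact permutation test of 2 arrays against 2 cannot go below p = 0.333. The code was tested on simulated data. The number of arrays limits the precision.

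The HOX genes and the gene lists were chosen with earlier results of these data known. Every called HOX gene was named with all its values, and of the uncalled ones the 3 with the smallest F-test p. From each list the 4 genes with the smallest p per contrast could be named. Results were recomputed with a further quantile normalization, the mean of probe sets, dim genes left out, an intensity trend, array weights, a 1.5-fold minimum, only the compared groups, a replicate block, and each array left out. Replicate numbers were not taken as pairs, because nothing in the labels ties arrays of the same number together and groups hold only 2 each. HOX genes with no probe set of a single symbol were left out.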

Additional observations from a re-analysis of the deposited data

Results flagged for a closer look

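Of the results above, 13 of the 27 HOX genes differed between LOC440173 siRNA 2 and siRNA 1 in a direct test of that difference (siRNA 2 minus siRNA 1, log2, limma adjusted p under 0.05). In the same test 37.1% of all genes differed, and 58.2% of genes at or above the median level. The HOX share, 48.1%, is above the first and below the second. HOXB2 (0.48), HOXB4 (0.30), HOXC8 (0.37) and HOXC11 (0.28) were higher with siRNA 2. HOXB5 (-0.83), HOXB6 (-0.76), HOXB13 (-0.54), HOXC9 (-0.19), HOXC13 (-0.53), HOXD8 (-0.18), HOXD9 (-0.35), HOXD10 (-0.41) and HOXD11 (-0.41) were lower with siRNA 2. Both duplexes lowered the same target RNA, siRNA 2 to 27.0% and siRNA 1 to 51.4% of the control. Whether the depth of knockdown or other targets of a duplex has a part in these differences was not tested.

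The effect of the PAXIP1-AS1 siRNA differed from the mean effect of the LOC440173 siRNAs for 5 of the 27 HOX genes. In that test 11.6% of all genes differed, and 18.1% of genes at or above the median level. The HOX share, 18.5%, is near the latter. The difference was 0.67 for HOXB9, 0.51 for HOXC10, 0.26 for HOXD10, -0.41 for HOXC13 and -0.33 for HOXD8. The experiments also differ in siRNA dose, which cannot be told apart from the target.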

How the results depend on the processing

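No called HOX change turned its direction with another quantile normalization or with 1 array left out. The other alternatives keep the group means of these genes, so they could not have turned a direction. An added 1.5-fold minimum left 2 genes with siRNA 2, 3 with siRNA 1, 2 between the siRNAs, 1 with the PAXIP1-AS1 siRNA and 1 in the difference of effects. Array weights left 8 with siRNA 2, where 23.2% of all genes were called. With only the compared groups, 5 remained with siRNA 2 and 3 with the PAXIP1-AS1 siRNA. With dim genes left out, the PAXIP1-AS1 count was 12, where 20.4% of the genes then tested were called. The fits of only the compared groups held fewer arrays, and the fit without dim genes held fewer genes. Array weights and the 1.5-fold minimum kept all arrays and genes. What changed the counts was not tested. Leaving out each array gave 7 to 13 genes with siRNA 2, 8 to 14 with siRNA 1, 10 to 15 between the siRNAs, 1 to 6 with the PAXIP1-AS1 siRNA, 1 to 5 in the difference of effects, 15 to 18 in the F test, 0 for the control dose and 25 above the olfactory receptor limit. For siRNA 2 the lowest counts were 7 without replicate 1 of the 10 nM control or replicate 2 of siRNA 2 and 8 without replicate 1 of siRNA 2, and for siRNA 1 it was 8 without its replicate 2. The difference of effects held 1 gene without replicate 1 of the PAXIP1-AS1 siRNA, 2 without its replicate 2, replicate 2 of siRNA 1, replicate 2 of the 10 nM control or either 100 nM control array, and 3 without replicate 1 of siRNA 1.

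With a replicate block the counts were 14 with siRNA 2, 15 with siRNA 1, 15 between the siRNAs, 7 with the PAXIP1-AS1 siRNA, 6 in the difference of effects, 19 in the F test and 0 for the control dose. That block gave 34.4% of all genes called with siRNA 2, 36.6% with siRNA 1 and 42.3% between the siRNAs. For the PAXIP1-AS1 siRNA the share of all genes was 7.2%, and for the difference of effects 16.4%. Deviations of same-numbered arrays correlated at 0.0677 to 0.529 over the 10 pairs of groups. With 2 arrays a group, the low HOXD12 and HOXC12 levels cannot be parted from background, and small changes rest on the pooled spread.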

Other observations

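HOXC6 and HOXC4 share 1 probe set in the platform annotation and were therefore no members. That probe set read 9.52 and 9.57 with LOC440173 siRNA 2 and 9.46 and 9.64 with siRNA 1, against 9.26 and 9.21 in the 10 nM control, and 9.50 and 9.49 with the PAXIP1-AS1 siRNA, against 9.22 and 9.21 in the 100 nM control. All target siRNA arrays lay above all controls. In a limma fit over all 32321 probe sets the changes were 0.30 with siRNA 2 (adjusted p = 0.0227), 0.31 with siRNA 1 (adjusted p = 0.0232) and 0.28 with the PAXIP1-AS1 siRNA (adjusted p = 0.125), and siRNA 2 and siRNA 1 differed by 0.00 (adjusted p = 0.980). Which of both genes the signal belongs to cannot be told from it.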
